A study of Mus musculus with 6 samples.

Results

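The primitive streak is the strip of the early embryo through which epiblast cells leave to form mesoderm and definitive endoderm. Its first cells are marked by a small set of transcription factors. *T* (Brachyury) and *Eomes* are T-box factors, *Mixl1*, *Gsc*, *Evx1* and *Lhx1* carry a homeodomain, *Mesp1* is a basic helix-loop-helix factor of the earliest mesoderm, and *Sp5* and *Sp8* are zinc finger factors of the Sp family. In the embryo the set is switched on by Nodal, Wnt and BMP signals, and *T* and *Sp5* are among the best known direct targets of Wnt signaling. Embryonic stem cells grown in serum with LIF, as here, are held in a pluripotent state in which these factors are usually low, but a part of the cells in such a culture can show streak genes without being asked to differentiate.

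The 9 factors were taken by symbol from 24393 features counted in each library, and all 9 were found. The libraries came from KH2 cells, mouse embryonic stem cells of the strain given as C57/BL/6, made for the targeted insertion of doxycycline-driven transgenes. One group of 3 cultures is labelled *HOXA13* and carries a targeted human *HOXA13* gene with a FLAG tag, and the other group of 3 is labelled CONTROL. Both groups were non-differentiated, grew on irradiated 3T3 fibroblasts in medium with serum and LIF, and are stated in the labels to have received no treatment, although the transgene was designed to respond to doxycycline. The methods call the 3 *HOXA13* and 3 control cultures biological replicates, without saying which of them share a targeted clone, so that p-values measure the spread between these cultures only. The comparison asks what *HOXA13* does to the transcriptome of pluripotent cells before any differentiation.

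Library totals ranged from 14608681 to 21766589 counts in control and from 13494135 to 20374341 counts in *HOXA13*-overexpressing cultures. Levels are given as CPM, counts per 1000000 counts of the library after TMM scaling, and the smallest level shown, 3 counts, corresponded to 0.134 to 0.227 CPM in a library. This floor covers counting error only. The feature with the human identifier ENSG00000106031 had at most 6 counts in a control library and at least 2881 in a *HOXA13* library. Of 10 embryonic stem cell markers 4 were higher (*Sox2*, *Nanog*, *Esrrb* and *Klf4*) and 2 lower (*Tdgf1* and *Fgf4*) in *HOXA13* cultures, beside 14.4% higher and 13.3% lower over all genes tested. *Tdgf1* and *Fgf4* are also in the list of signals used below. *Pou5f1* had means of 706 CPM in control and 690 CPM in *HOXA13* cultures. In the sum of the 10 markers control replicate 1 had the lowest share of counts, 0.258%, against 0.303% to 0.357% in the other control libraries and 0.339% to 0.348% in *HOXA13* libraries.

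The RNA of 4 of the 9 factors was lower in *HOXA13*-overexpressing cultures at an adjusted p under 0.05 (quasi-likelihood test of edgeR, Benjamini-Hochberg over all genes tested), and none was higher. These were *T*, *Mixl1*, *Sp8* and *Eomes*. Of the 13846 genes tested, 27.7% were called, 13.3% lower and 14.4% higher. In the same 4 factors all *HOXA13* libraries were below all control libraries, as they were in 22.2% of the genes tested. *Gsc*, *Evx1* and *Sp5* were tested and did not pass, and *Mesp1* and *Lhx1* had too few counts to enter the test. The median log2 fold change of the 7 tested factors was -1.87, against 0 for all genes tested, and it was -2.17 over all 9 when *Mesp1* and *Lhx1* were given 3 counts in each *HOXA13* library. No factor was higher at an unadjusted p under 0.05 either. Control cultures differed widely among themselves in most of these genes while the *HOXA13* cultures did not, so each control library is given below.

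**Figure D1:**
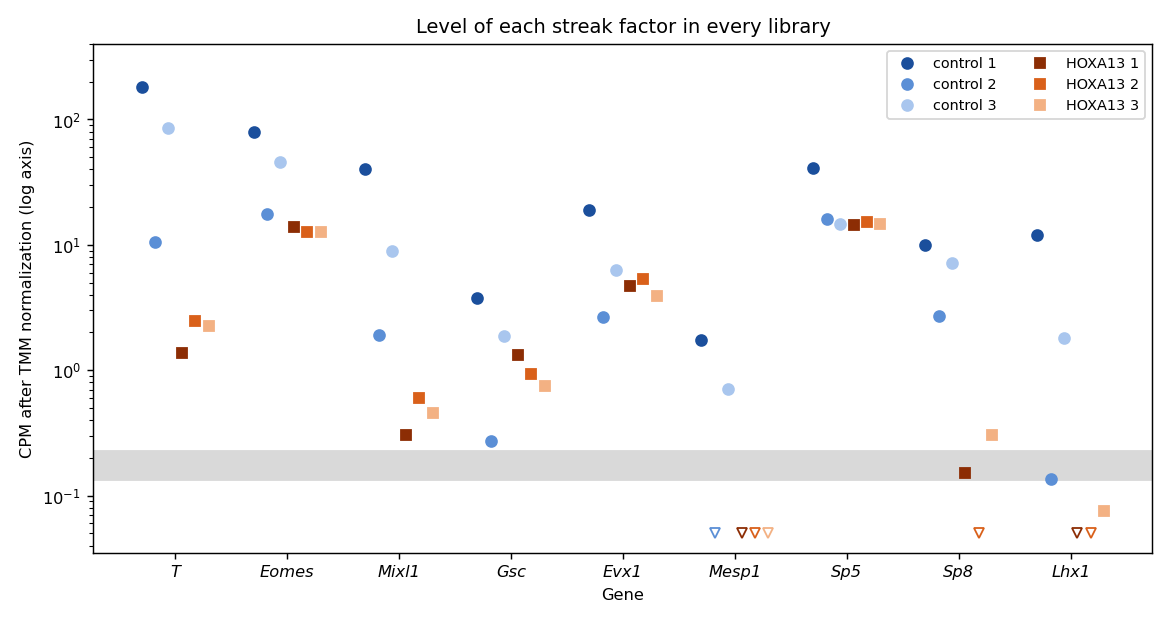
Level of each of the 9 factors in every library, as CPM after TMM normalization on a log axis, with circles for the 3 control and squares for the 3 HOXA13 libraries, open triangles at the bottom for 0 counts, and the grey band for the level of 3 counts (0.134 to 0.227 CPM). Control replicate 1 is the highest library for all 9 genes, and the 3 HOXA13 libraries lie close together wherever they are above the band.

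*T*, which drives mesoderm formation and is the classical marker of the streak, lies on chromosome 17 of mm9 from 8627288 to 8635361. Control replicates 1, 2 and 3 held 181, 10.5 and 85.2 CPM of it, and the *HOXA13* libraries 1.37, 2.48 and 2.27 CPM. Every control library was above every *HOXA13* library, although control replicate 2 held 17.2-fold less than control replicate 1. The control mean was 92.1 ± 85.3 CPM (SD, n = 3) and the *HOXA13* mean 2.04 ± 0.587 CPM (SD, n = 3), which is a difference of -5.53 ± 0.99 on the log2 scale (standard error, edgeR adjusted p = 0.00519). Set against the *HOXA13* mean, *T* was 88.7-fold higher in control replicate 1 and 41.8-fold higher in control replicate 3, but 5.17-fold higher in control replicate 2. Without control replicate 1 the log2 difference was -4.60. The call was kept whichever 1 of the 6 libraries was left out, and was lost with limma-voom (adjusted p = 0.111).

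*Mixl1*, a homeobox factor of the streak that takes part in endoderm and mesoderm formation, lies on chromosome 1 from 182623174 to 182627165. Its levels were 40.3, 1.90 and 8.94 CPM in control replicates 1, 2 and 3 and 0.304, 0.605 and 0.453 CPM in the *HOXA13* libraries, which rest on 6, 11 and 6 counts. The groups did not overlap, and control replicate 2 was again the lowest control. *Mixl1* differed by -5.24 ± 1.17 on the log2 scale (standard error, adjusted p = 0.0126), while the median over the 780 genes tested on chromosome 1 was 0.38. The proportion of *T* to *Mixl1* overlapped between the groups, since the counts of *T* were 4.48, 5.54 and 9.53 times those of *Mixl1* in the control libraries and 4.50, 4.09 and 5.00 times in the *HOXA13* libraries. Without control replicate 1 *Mixl1* differed by -3.61 on the log2 scale. The call for *Mixl1* was lost without any 1 of the *HOXA13* libraries (adjusted p between 0.0542 and 0.0786) and with limma-voom (adjusted p = 0.134).

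*Sp8*, on chromosome 12 from 120084802 to 120091051, acts in limb, neural and tail bud development. Control replicates 1, 2 and 3 held 9.94, 2.72 and 7.22 CPM, from 223, 40 and 143 counts. In the *HOXA13* libraries it had 3, 0 and 4 counts, 7 in all. Set against the 406 counts of the control libraries, this is a ratio of 52 (95% exact binomial interval 25 to 130, counting error only). *Sp8* was thus at or close to the floor in each *HOXA13* library and well above it in each control library. *Sp8* differed by -5.53 ± 0.74 on the log2 scale (standard error, adjusted p = 0.00136), and of the 4 factors called lower it was the one whose call was kept in every alternative fit that tested it. Its log2 difference ranged from -6.29 without *HOXA13* replicate 3 to -4.91 without *HOXA13* replicate 2. The filter on at least 10 counts in every library removed it. Among 10 markers of neural cells, a tissue that also uses *Sp8*, 6 were tested, and 4 were lower (*Olig2*, *Pax6*, *Nes* and *Tubb3*) and 1 higher (*Neurog1*) in *HOXA13* cultures, beside the 13.3% and 14.4% of all genes. Most of their counts were those of *Nes* and *Tubb3*, and *Olig2* was highest in control replicate 2, at 18.1 CPM against 5.75 and 9.29 CPM in control replicates 1 and 3. Their summed share of counts was 0.0249% to 0.0438% in control and 0.0102% to 0.0108% in *HOXA13* libraries, with *Six3* and *Neurog2* at or under 3 counts in all libraries. Their part in the result for *Sp8* was not tested.

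*Eomes*, the T-box factor needed for definitive endoderm and for the exit of mesoderm from the streak, lies on chromosome 9 from 118387330 to 118395250. Control replicates 1, 2 and 3 held 79.8, 17.5 and 45.7 CPM of it, and the *HOXA13* libraries 14, 12.7 and 12.6 CPM. The groups did not overlap, but control replicate 2 was only 1.33-fold above the *HOXA13* mean. The difference was -1.87 ± 0.46 on the log2 scale (standard error, adjusted p = 0.0181). Without control replicate 1 it was -1.29. This call was lost without control replicate 3 and without any 1 of the *HOXA13* replicates (adjusted p between 0.0523 and 0.0835), and with limma-voom (adjusted p = 0.0573). *Eomes* is also a gene of trophoblast stem cells. Of 10 trophoblast markers 7 were tested, and 4 were higher (*Tfap2c*, *Gata3*, *Ascl2* and *Krt7*) and 1 lower (*Tead4*) in *HOXA13* cultures, beside 14.4% and 13.3% of all genes. The other 2 tested were not called in edgeR's test, *Cdx2* (log2 fold change 0.08, adjusted p = 0.933) and *Hand1* (-2.06, adjusted p = 0.11). The summed share of the 10 markers was 0.00741% to 0.00882% in control and 0.0248% to 0.0258% in *HOXA13* libraries. Most of it was from *Tfap2c* alone (means of 53.7 CPM in control and 223 CPM in *HOXA13* cultures). *Tpbpa* was at 0 in all libraries, and *Elf5* had 1, 0 and 2 counts in control and 5, 8 and 8 in *HOXA13* libraries. What these markers contribute to the level of *Eomes* was not tested.

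*Lhx1*, a LIM homeobox factor of the streak, its anterior derivatives and the visceral endoderm (chromosome 11, 84331479 to 84338923), had 269, 2 and 36 counts in control replicates 1, 2 and 3 and 0, 0 and 1 counts in the *HOXA13* libraries. *Mesp1* (chromosome 7, 86937127 to 86938674) was counted 39, 0 and 14 times in control replicates 1, 2 and 3 and never in a *HOXA13* library. For both genes control replicate 2 was at or under the floor, like the *HOXA13* libraries, and the difference rests on control replicates 1 and 3. Over all libraries *Lhx1* had 307 counts in control and 1 in *HOXA13* cultures, a ratio of 275 with a 95% interval of 49.1 to 10900 (exact binomial, counting error only). *Mesp1*, with the *HOXA13* libraries set to 3 counts each, was at least 4.50-fold lower. Without the filter on low counts both were called lower by edgeR (adjusted p = 0.00985 for *Lhx1* and 0.029 for *Mesp1*), in a fit that called 10.1% of 18930 genes lower. With DESeq2 the adjusted p was 0.0029 for *Lhx1* and 0.265 for *Mesp1*, and in edgeR without 1 of the *HOXA13* libraries it was between 0.0947 and 0.159 for either gene.

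*Sp5*, a direct Wnt target that dampens the Wnt response (chromosome 2, 70312980 to 70315786), gave 40.7, 16.1 and 14.7 CPM in the control replicates in order and 14.3, 15.1 and 14.7 CPM in the *HOXA13* libraries. Control replicates 2 and 3 were thus at the level of the *HOXA13* libraries, and only control replicate 1 stood above it. The difference, -0.71 ± 0.36 on the log2 scale (standard error, adjusted p = 0.182), became -0.07 without control replicate 1.

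*Evx1*, a homeobox factor of the posterior streak (chromosome 6, 52263492 to 52268372, beyond the *Hoxa* cluster), gave 18.9, 2.65 and 6.26 CPM in the control replicates in order and 4.72, 5.34 and 3.93 CPM in the *HOXA13* libraries. The *HOXA13* libraries lay between the control libraries, above control replicate 2 and below the other two. *Evx1* differed by -1.01 ± 0.59 on the log2 scale (standard error, adjusted p = 0.241), which turned to 0.04 without control replicate 1. The non-coding RNA *5730457N03Rik* overlaps the exons of *Evx1* by 73 bases on the opposite strand, and no source states whether reads were counted by strand. Its counts were 101, 12 and 34 in control and 19, 18 and 21 in *HOXA13* libraries, which differ by -1.06 ± 0.57 on the log2 scale (standard error, adjusted p = 0.207).

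*Gsc* (goosecoid), a repressor of the anterior streak and organizer (chromosome 12, 105709419 to 105711537), was counted 85, 4 and 37 times in control replicates 1, 2 and 3, or at 3.79, 0.272 and 1.87 CPM. The *HOXA13* libraries gave 26, 17 and 10 counts, or 1.32, 0.935 and 0.755 CPM. As for *Evx1*, control replicate 2 was below all *HOXA13* libraries while control replicates 1 and 3 were above them. *Gsc* differed by -1.0 ± 0.68 on the log2 scale (standard error, adjusted p = 0.313), and by -0.16 without control replicate 1 (adjusted p = 0.87).

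Without control replicate 2, *Gsc* (log2 fold change -1.48, adjusted p = 0.0139) and *Evx1* (log2 fold change -1.44, adjusted p = 0.0179) were called lower in edgeR's test, and 8 of the 9 factors were, all but *Sp5* (adjusted p = 0.0544). That fit called 18.3% of 14118 genes lower. Without control replicate 1 there were 4 factors called, against 14.8% of all genes, and without control replicate 3 there were 3, against 8.82%. Leaving out *HOXA13* replicate 1, 2 or 3 left 2 of the factors called each time, against 6.42%, 6.75% and 7.31% of all genes. Limma-voom called 1, *Sp8*, against 12.5% of all genes.

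**Figure D2:**
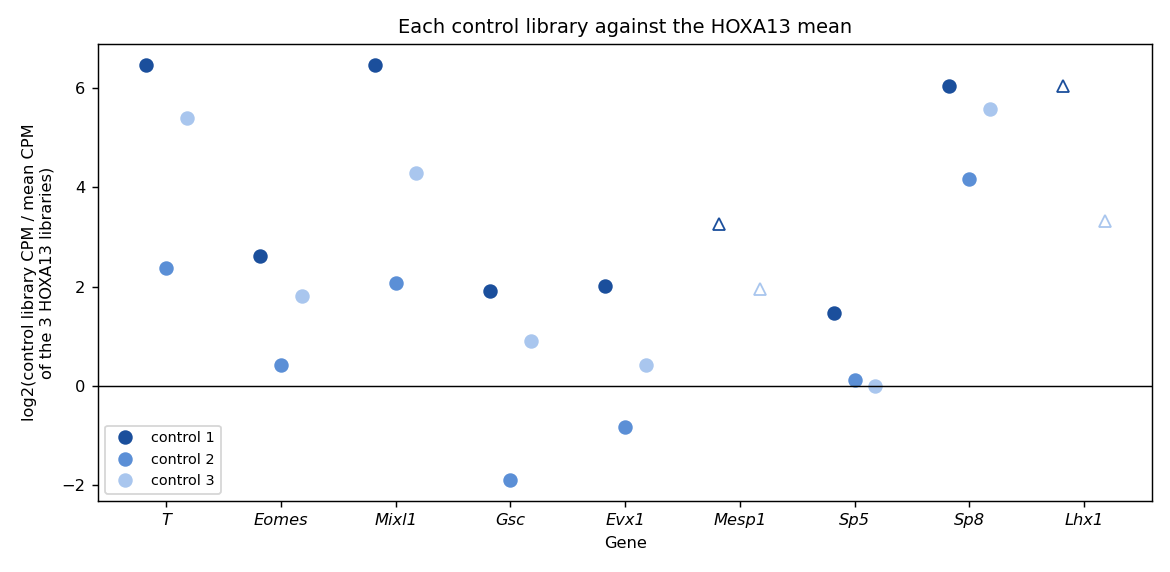
Log2 ratio of each control library's CPM to the mean CPM of the 3 HOXA13 libraries for each factor, with open triangles for Mesp1 and Lhx1, whose HOXA13 libraries were set to 3 counts each, and no point where the control library was also at 3 counts or fewer. Control replicate 2 lies below 0 for Gsc (-1.89) and Evx1 (-0.82), near 0 for Sp5 and Eomes, and above 2 for T, Mixl1 and Sp8.

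The variation among the control cultures had a shared order. Control replicate 1 was the highest, control replicate 3 the next and control replicate 2 the lowest in 8 of the 9 factors, the exception being *Sp5*, and in 6 of the 7 tested factors. Of all genes tested, 25.5% had this order. The 7 tested factors were higher in control replicate 1 than in control replicate 2 by a median of 2.78 on the log2 scale. The highest control library exceeded the lowest at least 4-fold in 5 of the 7 (*T*, *Mixl1*, *Gsc*, *Evx1* and *Eomes*), as it did in 1.52% of all genes tested. In *Sp8* it did so 3.66-fold and in *Sp5* 2.76-fold. *Lhx1* was 88.3-fold higher in control replicate 1 than in control replicate 2 (269 against 2 counts, 95% exact binomial interval 24.2 to 733, counting error only), and *Mesp1*, with control replicate 2 set to 3 counts, at least 8.53-fold. The *HOXA13* libraries stayed within 1.99-fold of each other in *T*, *Eomes*, *Mixl1*, *Gsc*, *Evx1* and *Sp5*. A span of at least 4-fold among the *HOXA13* libraries was seen in none of these 6 factors and in 0.253% of all genes, and *Sp8*, at 0 to 4 counts there, could not show one. The pluripotency factor *Klf4* had 109, 289 and 136 CPM and *Esrrb* 257, 511 and 294 CPM in control replicates 1, 2 and 3, the reverse of the order of the streak factors. Of the other embryonic stem cell markers *Sox2*, *Pou5f1*, *Zfp42*, *Utf1* and *Fgf4* had this reversed order too. *Nanog*, *Dppa5a* and *Tdgf1* did not, and *Tdgf1* had the order of the streak factors. The part of this in the spread of the streak factors was not tested. Since these are bulk cultures, fewer cells that express a factor and less of its RNA per cell cannot be told apart.

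Divided by the exon length of each gene in the GENCODE annotation of mm9, the control means were 39.9 CPM per kb for *T*, 11.5 for *Eomes*, 11.4 for *Sp5*, 7.43 for *Mixl1*, 3.22 for *Evx1*, 1.56 for *Gsc*, 1.43 for *Sp8*, 1.13 for *Lhx1* and 0.639 for *Mesp1*. The ranges of the control libraries overlapped between each gene and the next in this order. In *HOXA13* cultures the order was *Sp5* at 7.00 CPM per kb, *Eomes* at 3.15, *Evx1* at 1.62, *T* at 0.881 and *Gsc* at 0.793, followed by *Mixl1* at 0.198 and *Sp8* at 0.0327. Here the ranges of neighbours overlapped for *T* and *Gsc* only, among these 7. *T* made up 52.0%, 24.0% and 56.7% of the summed CPM per kb of the 9 factors in control replicates 1, 2 and 3, and 4.35%, 7.57% and 7.38% in the *HOXA13* libraries. *Sp5* made up 12.9%, 40.3% and 10.8% in the control libraries and 50.1%, 50.7% and 52.8% in the *HOXA13* libraries. The sum itself was 150, 19.0 and 65.0 CPM per kb in the control libraries and 13.3 to 14.1 in the *HOXA13* libraries.

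**Figure D3:**
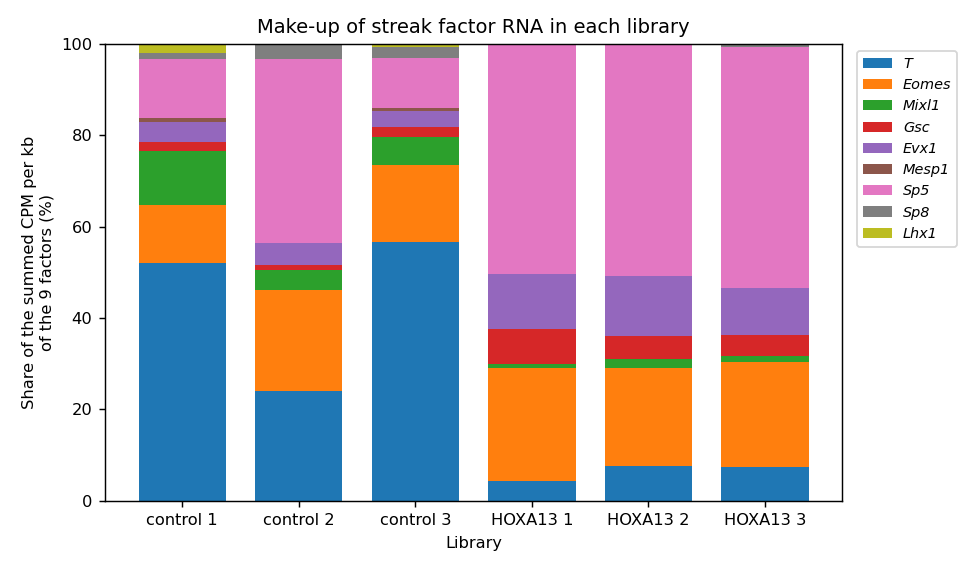
Share of each factor in the summed CPM per kb of the 9 factors, 1 bar per library. T holds 24.0% to 56.7% of a control bar and 4.35% to 7.57% of a HOXA13 bar, and Sp5 holds over 50% of each HOXA13 bar.

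Ratios of counts between factors within a library do not depend on scaling. The counts of *T* were 2.26, 0.603 and 1.86 times those of *Eomes* in control replicates 1, 2 and 3 and 0.0982, 0.196 and 0.18 times in the *HOXA13* libraries. The lowest control ratio was above the highest *HOXA13* ratio. The ratio of *T* to *Sp5* was 4.44, 0.654 and 5.78 in control and 0.0957 to 0.164 in *HOXA13* libraries, again without overlap. The ratio of *Evx1* to *Sp5* was 0.464, 0.165 and 0.425 in control and 0.267 to 0.354 in *HOXA13* libraries, with the *HOXA13* libraries between the control libraries. The pairs were chosen after their values had been seen, as 4 of 6 pairs computed, and their ratios are a description with no test.

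The 250 bases before the RefSeq start sites were searched for short sequences that match known binding preferences, on both strands. Windows were found for 8 of the 9 factors, 10 windows in all, with none in the table for *Mixl1*. At least 1 of CTTTGAA and CTTTGAT as well as CTTTGTA and CTTTGTT, letters which fit the TCF/LEF factors at the end of the Wnt pathway, was found in windows of 4 factors, *T*, *Sp8*, *Sp5* and *Mesp1*, and in 14.8% of 32851 windows of all genes. These windows are shown because they hold these letters in front of factors that were called lower (*T*, *Sp8*) as well as of 1 that was not (*Sp5*). They are from GRCm38.p6, read 5′ to 3′ on the strand of the gene, and end at the base before the start site, with the TCF/LEF letters on either strand in capitals. They lie at chr17:8434173-8434422 on the plus strand for *T*, at chr12:118846983-118847232 on the plus strand for the second of 3 windows of *Sp8*, at chr2:70474673-70474922 on the plus strand for *Sp5* and at chr7:79793591-79793840 on the minus strand for *Mesp1*.
T: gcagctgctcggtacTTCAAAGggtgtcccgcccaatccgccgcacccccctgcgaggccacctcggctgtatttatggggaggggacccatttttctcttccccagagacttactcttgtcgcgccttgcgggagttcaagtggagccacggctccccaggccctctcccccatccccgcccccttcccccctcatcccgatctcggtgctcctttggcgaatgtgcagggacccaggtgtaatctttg
Sp8: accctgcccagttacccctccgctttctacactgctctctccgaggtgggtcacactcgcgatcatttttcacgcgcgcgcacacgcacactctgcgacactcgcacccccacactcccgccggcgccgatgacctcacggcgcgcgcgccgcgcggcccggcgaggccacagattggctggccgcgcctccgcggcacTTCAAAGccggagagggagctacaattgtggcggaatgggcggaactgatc
Sp5: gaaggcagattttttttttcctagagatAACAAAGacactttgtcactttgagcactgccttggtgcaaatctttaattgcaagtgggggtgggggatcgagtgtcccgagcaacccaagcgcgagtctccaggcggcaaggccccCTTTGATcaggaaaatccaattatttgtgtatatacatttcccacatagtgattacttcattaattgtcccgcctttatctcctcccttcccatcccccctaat
Mesp1: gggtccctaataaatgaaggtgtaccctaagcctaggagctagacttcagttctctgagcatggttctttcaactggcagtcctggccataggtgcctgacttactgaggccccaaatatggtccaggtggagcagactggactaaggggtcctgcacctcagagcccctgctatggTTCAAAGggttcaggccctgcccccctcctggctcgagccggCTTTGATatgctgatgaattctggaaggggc

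Counted back from the start site, the match in *T* spans bases 235 to 229, that in *Sp8* 51 to 45, those in *Sp5* 222 to 216 and 104 to 98, and those in *Mesp1* 73 to 67 and 31 to 25. The T-box sequence AGGTGTGA was in none of the 10 windows and in 1.12% of all windows. TTTATTG or TTTACGA, which fit the HOX13 group of homeodomains, were in 2 of the 10 windows, that of *Evx1* and another of *Sp8*, and in 4.65% of all windows. None of these motifs overlapped another in the windows shown. A match describes the letters only.

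Signals that act on the streak were read from a list of 42 genes for Nodal, Wnt, BMP and FGF ligands, receptors, effectors and inhibitors. Of the 38 tested, 20 were lower and 3 higher in *HOXA13* cultures, beside 13.3% lower and 14.4% higher over all genes tested. Their median log2 fold change was -0.73, against 0 for all genes. Apart from *Fgf8*, with 1369 counts in all control and 2 in all *HOXA13* libraries (ratio 614, 95% exact binomial interval 170 to 5080 for counting error only, adjusted p = 0.00336), the largest decreases were those of the ligands *Wnt3* (log2 fold change -5.01, adjusted p = 0.00698), *Fgf5* (-4.90, adjusted p = 0.0017), *Wnt8a* (-3.97, adjusted p = 0.0125), *Fgf15* (-3.85, adjusted p = 6.88e-05) and *Fgf17* (-2.13, adjusted p = 0.00486) and of the Wnt effectors *Lef1* (-2.66, adjusted p = 0.00462) and *Tcf7* (-1.82, adjusted p = 0.0068). *Bmp7*, the Nodal receptor *Acvr1b* and *Tcf7l2* were the higher genes, with log2 fold changes of 1.43, 0.54 and 0.46. The control cultures were again ordered 1, 3, 2 in 14 of the 20 lower genes, beside 25.5% of all genes tested.

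The lower signal genes were not all of the kind seen in *T*. *Wnt3* had 56.7, 4.35 and 19.4 CPM in the control replicates in order and 0.660, 1.32 and 0.453 CPM in *HOXA13* libraries, and *Fgf8* at 42.8, 2.92 and 18.4 CPM in control, with at most 1 count in a *HOXA13* library. In 4 of the 20 the controls spanned at least 4-fold, beside 1.52% of all genes tested. In 8 of the 20 they stayed within 2-fold. One of these was *Tdgf1* (Cripto), the Nodal co-receptor, at 370, 342 and 359 CPM in control and 178, 160 and 165 CPM in *HOXA13* libraries (log2 fold change -1.09, standard error 0.07, adjusted p = 3.03e-05). Another was *Fgf15*, at 9.58, 15.8 and 13.6 CPM in control and 0.660, 0.935 and 1.13 CPM in *HOXA13* libraries. In *Wnt3*, *Fgf8*, *Tdgf1* and *Fgf15* alike, every control library was above every *HOXA13* library.

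Of 29 further transcription factors of the streak and its early derivatives, 24 were tested, 3 were lower, among them *Hhex* and *Tal1*, and 2 higher (*Gata6* and *Cdx1*). These counts stand beside 13.3% lower and 14.4% higher over all genes tested, shares that would give about as many, so they show nothing particular to this list. The median log2 fold change was 0.03. *Hhex*, of anterior endoderm, had a log2 fold change of -1.31 (adjusted p = 0.00636). *Tal1*, of blood and endothelium, had 13, 23 and 16 counts in control and 1, 2 and 1 in *HOXA13* libraries, a ratio of 11.7 (95% exact binomial interval 4.29 to 44.4 for counting error only, edgeR adjusted p = 0.00522). *Gata6*, used in endoderm and heart, and *Cdx1*, of posterior tissue, had log2 fold changes of 1.80 and 1.51. Without control replicate 2, 8 of the 25 factors then tested were lower and 4 higher, in a fit that called 18.3% of all genes lower and 17.2% higher. *Hand1*, of extraembryonic and lateral mesoderm, had 90, 3 and 25 counts in control and 6, 11 and 6 in *HOXA13* libraries, and did not pass (adjusted p = 0.11). The endoderm factor *Sox17* had at most 5 counts in any library. Among 14 primitive endoderm markers 10 were tested, 2 were higher and 2 lower, their sum was 0.0548% to 0.0698% of counts in control and 0.0492% to 0.0575% in *HOXA13* libraries, and *Ttr* was at 0 throughout. Most of this sum was *Col4a1*, which fibroblasts also express (means of 537 CPM in control and 487 CPM in *HOXA13* cultures). The lower markers were *Lama1* (log2 fold change -2.22) and *Pdgfra* (-0.80), and the higher ones *Gata6* (1.80) and *Sox7* (2.14).

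**Figure D4:**
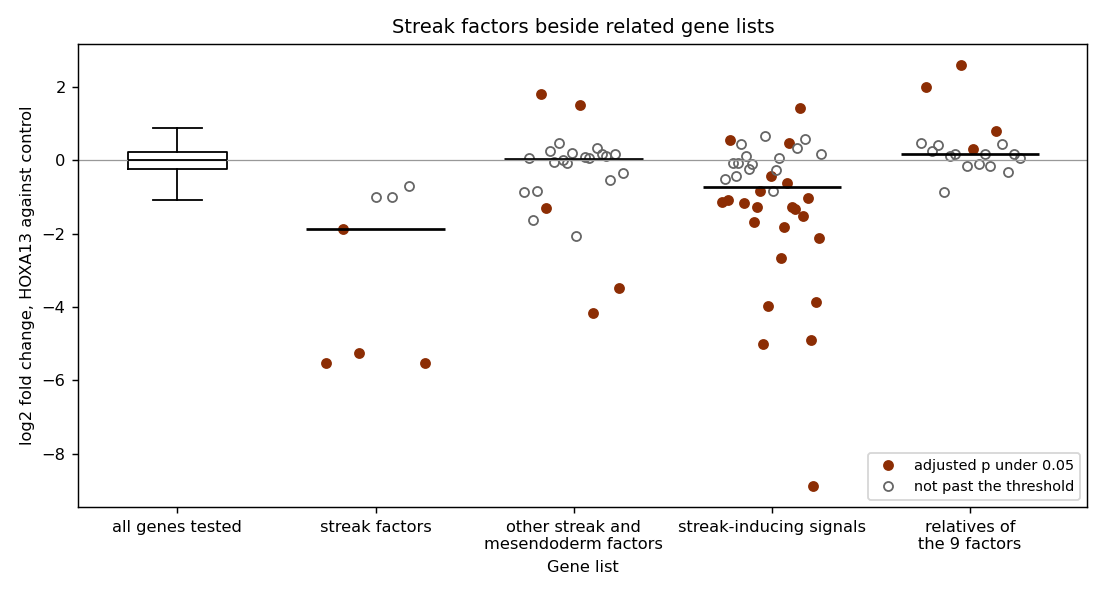
Log2 fold change of HOXA13 against control cultures for the tested genes of 4 lists beside all genes tested, with filled points for an adjusted p under 0.05, horizontal lines for medians, and a box for the quartiles and whiskers for the 5th and 95th percentile of all genes. The streak factors have a median of -1.87, the further factors of 0.03, the signals of -0.73 and the relatives of 0.17, and the fitted value of Fgf8 at the bottom is not a bound.

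Relatives of the 9 factors by family were read from a further list. Of 32 T-box, Sp, LIM homeobox, Evx, Gsc and Mesp genes, 18 were tested, 4 were higher and none was lower in edgeR's test, while 1 was lower at an unadjusted p under 0.05 and 1 was lower with DESeq2, without the filter or with sample quality weights in limma-voom. Over all genes tested 14.4% were higher and 13.3% lower, so the counts over 18 genes show nothing particular to the relatives. The higher genes were *Tbx20* (log2 fold change 2.59, adjusted p = 0.00012), *Tbx3* (1.98, adjusted p = 0.000636), *Sp6* (0.79, adjusted p = 0.0151) and *Sp1* (0.31, adjusted p = 0.0104). *Mesp2*, the neighbour of *Mesp1* in the genome, had 20, 9 and 12 counts in control and 23, 9 and 7 in *HOXA13* libraries.

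The genes most like the factors were sought among 12005 tested genes, those whose mean reached 1 log2 CPM, by their log2 CPM in the 6 libraries, centred on each gene's mean. The mean profile of the 7 tested factors was 2.53, -0.31 and 1.32 in control replicates 1, 2 and 3 and -1.21, -1.21 and -1.11 in the *HOXA13* libraries. The closest 8 were *Slc46a3*, *Krt8*, *Prom1*, *Chst15*, *Krt18*, *Car4*, *Arap3* and *Parp10*, with root mean square differences from that profile of 0.18 to 0.29 log2 units over 6 libraries. *Krt8* and *Krt18* form the keratin pair of simple epithelia. *Krt8* was at 142, 19.5 and 58.8 CPM in control and 12.5 to 15.3 CPM in *HOXA13* libraries, and *Krt18* at 92.8, 18.3 and 40.4 CPM in control and 8.31 to 10.3 CPM in *HOXA13* libraries. Both thus had control replicate 1 highest and control replicate 2 closest to the *HOXA13* libraries. Of the factors themselves *Eomes* was closest to their mean, at 0.43 log2 units, and *Sp8* and *T* the farthest, at 1.32 and 1.28. As these genes were picked for their likeness, their profiles are a description.

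**Figure D5:**
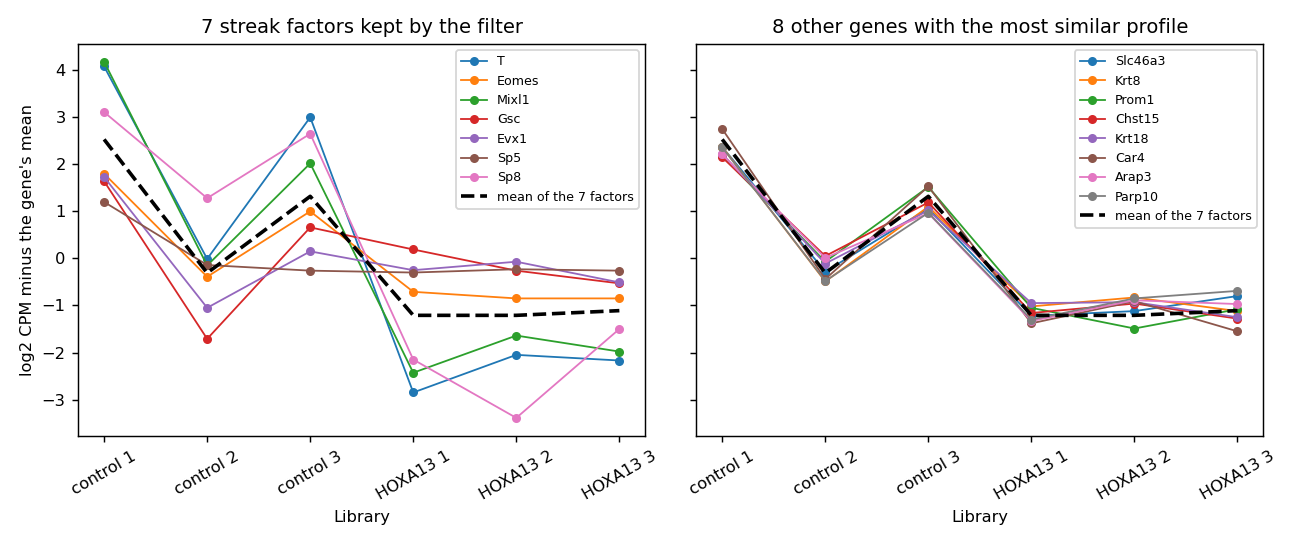
Log2 CPM in each library minus the gene's mean over the 6 libraries, for the 7 tested factors (left) and the 8 other genes with the most similar profile (right), with the mean of the 7 factors as a dashed line. T, Mixl1 and Sp8 span more than the mean, Sp5 is flat outside control replicate 1, and the 8 other genes lie within 0.29 log2 units (root mean square) of the mean.

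RNA of feeder fibroblasts can be in these libraries. Summed over 20 fibroblast markers it took 0.734% to 1.05% of the counts in control and 0.881% to 1.08% in *HOXA13* libraries, lowest in control replicate 1. One of the 20, *Cd44*, was lower in edgeR's test (log2 fold change -0.53, adjusted p = 0.0157), and none was higher, beside 13.3% lower and 14.4% higher over all genes tested. The part of the fibroblast share in the values above was not tested.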

How the data were processed

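Stranded poly-A libraries of 3 control and 3 *HOXA13* cultures were read at 75 base-pairs. TopHat (to mm9) and HTSeq (per gene) were used by the authors for mapping and counting. The submitters' processing notes give TopHat2 2.0.14 and HTSeq 0.6.1p1, while the methods give another TopHat version. They deposited whole-number counts without normalization, 1 table per library. The annotation, counting mode and strand setting are not given in the sources used here.

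The deposited counts were tested with edgeR 4.0.16 in R 4.3.3 (filterByExpr with a minimum count of 10 and total of 15, TMM factors, glmQLFit and glmQLFTest, no covariates, Benjamini-Hochberg over 13846 genes, threshold 0.05). Log2 fold changes carry edgeR's prior count of 0.125, and log2 CPM profiles a prior count of 2. A standard error was derived from each log2 fold change and its F statistic. Members and lists were chosen with earlier results of these data known. Of the lists, genes past the threshold were named, up to 8 with the largest change each, except 1 gene that is not reported here. Other genes were named after their values were seen. Positions and lengths are from GENCODE vM1 (mm9), promoters from RefSeq (GRCm38.p6). Alternatives were RLE factors, library size alone, 2 other filters, a block for the replicate number, robust estimation, DESeq2 1.42.0, limma-voom (limma 3.58.1) with and without sample quality weights, centring of each chromosome, and each library left out. The code was first tested on simulated data. Depth was 13494135 to 21766589 counts per library.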

Additional observations from a re-analysis of the deposited data

How the results depend on the processing

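No factor was called higher under any alternative. The number called lower, 4 in the test reported, was 2 with at least 10 counts in every library, where only 4 factors remained to be tested, and 1 with limma-voom, for which the cause was not tested. It ranged from 2 to 8 when 1 library was left out, with 8 without control replicate 2. Leaving out a library also changed the filter, so that all 9 factors were tested in 4 of these fits. The log2 fold change of *Evx1* turned to 0.04 without control replicate 1, and the values with 1 library left out ranged from -1.44 to 0.04. Sample quality weights in limma-voom gave 5 lower further streak factors (3 as reported), 8 higher signal genes (3 as reported) and 1 lower relative (0 as reported), and the latter count was also 1 with DESeq2 and without the filter. For these the cause was not tested. When 1 library was left out, further streak factors lower ranged from 3 to 8 and higher from 2 to 4, and signal genes higher from 1 to 6. The difference between control replicates 1 and 2 kept its size under each scaling. Scaled by library size only, 1577 genes were higher and 2499 lower, against 1994 and 1842 with TMM, and the members called stayed 4. Deviations of same-numbered libraries from their group means were almost uncorrelated over the genes tested (correlations -0.015, -0.045 and 0.018). This does not show whether same-numbered cultures shared a clone or a batch. With the replicate number as a block 4 factors were called lower, as without it, and 19 signal genes in place of 20. Levels at or near 3 counts, such as those of *Mesp1* and *Lhx1* in control replicate 2 and of *Sp8* in the *HOXA13* libraries, cannot be ranked against each other at this depth.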
